A study of Mus musculus with 6 samples.

Results

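Hoxb3, Hoxb4 and Hoxb5 are neighbouring homeobox genes of the HoxB cluster on mouse chromosome 11, and the regions described here are the windows of DNA that the authors listed as differentially methylated with 1 of these 3 genes as the nearest one. A window is a stretch of 500 bp, and neighbouring windows start 250 bp apart. Counting each window once, 8 of the 2135 windows listed in any of the 3 comparisons belong to these genes: 5 next to Hoxb3, 2 next to Hoxb4 and 1 next to Hoxb5. The windows were chosen by their presence in the authors' lists, so their differences are given as a description and without a test.

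Methylation was read by reduced representation bisulfite sequencing (RRBS), which cuts DNA with the enzyme MspI and reads the methylated share of cytosines in the short, CpG-rich fragments. All cells were bone marrow cells of C57BL6 mice immortalised with HoxA9, a homeobox factor that sustains growth of myeloid progenitors, so every group carries this oncogene. In the IDH1wt group (2 libraries) the cells received the vector pSF91-IDH1wt-IRES-EGFP, and in the IDH1mut group (2 libraries) pSF91-IDH1mut-IRES-GFP, which encodes the R132C form. In the R-2HG group (2 libraries) they received an empty vector, and the mice that carried them were treated for 4 weeks with R-2HG at a dose of 1 mg daily. The cells had been transplanted into irradiated mice and were sorted from the marrow by their GFP 4 weeks after transplantation or treatment. R-2HG is the metabolite made by mutant IDH1, and it inhibits enzymes that need 2-oxoglutarate, among them the TET enzymes that oxidise methylcytosine. IDH1wt and R-2HG cells differ both in vector and in treatment, and these cannot be told apart. An empty-vector group without R-2HG is not analysed here. The identity of the sorted cells could not be checked against marker genes, since the tables hold no expression values.

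Hox genes encode transcription factors that give cells their position along the body axis, and they sit in 4 clusters whose gene order matches the order of their expression. Genes with the same number in different clusters are paralogues and have closely related homeodomains. In blood, genes of the HoxB cluster are active in stem and early progenitor cells and are shut down as cells mature. HOXB4 expands blood stem cells when it is overexpressed, Hoxb3 is co-expressed with it in primitive cells, and Hoxb5 has been used to mark long-term stem cells. Inactive Hox genes are usually held by Polycomb proteins, and their CpG islands can take up DNA methylation in cultured and malignant cells.

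The deposited tables give a difference in methylation between groups and no value per library, so no spread between libraries stands beside any difference below. The depth behind each window is unknown. It is not stated whether libraries of the same group stem from different mice. Every window in the 3 tables differs by at least 25 percentage points with an authors' q of at most 0.00995. A window missing from a table was therefore below this size, above the q threshold or not covered, and these cases cannot be told apart. The tables do not state the direction of subtraction. At the 3 windows found in all 3 tables, the differences add up only if the table of IDH1wt with R-2HG runs opposite to the other 2. With that table turned, IDH1wt is subtracted from IDH1mut and from R-2HG here, and IDH1mut from R-2HG. The data fix this only up to a reversal of all 3 tables together, and under that reversal every gain below is a loss of the same size.

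Of the 3 genes, RefSeq's promoter table (build GRCm38.p6) holds a promoter for Hoxb4 only. It is shown because it gives the CpGs that could be methylated around the start of the Hoxb4 transcript, with each CpG in capitals. It runs from 250 bases before to 50 after the start, chr11:96318017-96318316, plus strand. The deposited windows are on the build mm9, so these positions cannot be set against theirs.

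Hoxb4 promoter: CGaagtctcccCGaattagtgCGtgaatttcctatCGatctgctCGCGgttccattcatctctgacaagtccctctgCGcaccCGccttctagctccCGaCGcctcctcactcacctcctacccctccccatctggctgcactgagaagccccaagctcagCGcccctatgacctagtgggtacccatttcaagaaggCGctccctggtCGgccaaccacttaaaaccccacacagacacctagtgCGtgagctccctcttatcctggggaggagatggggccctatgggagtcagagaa

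The 300 bases hold 14 CpGs, against a median of 7 over the 32851 promoters of this length in the table, and 36.3% of those promoters hold at least as many. They hold no CCGG, the letters that MspI cuts and that read the same on both strands. At least 1 CCGG is present in 52.8% of all promoters. The other HoxB genes in the table are Hoxb8, Hoxb1 and the antisense gene Hoxb3os, with 13, 10 and 19 CpGs and 1, 1 and 5 CCGG. These counts describe the letters only. In the authors' tables, the listed windows of Hoxb4 do not cover its start site but begin 1422 bp downstream of it.

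Mapped along the cluster, the 8 windows fell into 3 separate places. In the direction of transcription these are downstream of the start of Hoxb5, downstream of the start of Hoxb4 and upstream of the start of Hoxb3. From the distances in the authors' deposited tables, the start sites lie at 96164824 for Hoxb5, 96179579 for Hoxb4 and 96205083 for Hoxb3 (mm9, chromosome 11, plus strand), so Hoxb5 and Hoxb4 start 40259 and 25504 bp before Hoxb3. Windows within 1000 bp of each other were joined into stretches, because overlapping windows share CpGs and are not independent. The Hoxb5 stretch is a single window from 96166251 to 96166750. After a gap of 14250 bp follows the Hoxb4 stretch of 750 bp, from 96181001 to 96181750. After another gap of 20000 bp follows the Hoxb3 stretch of 2000 bp, from 96201751 to 96203750. No other gene's listed window lay between the first and the last of these positions in any of the 3 tables. The authors numbered the windows of each list along the chromosome. The 5 windows listed for IDH1mut carry the numbers 234 to 238 and the 6 listed for R-2HG the numbers 106 to 111, without an absent number.

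**Figure D1:**
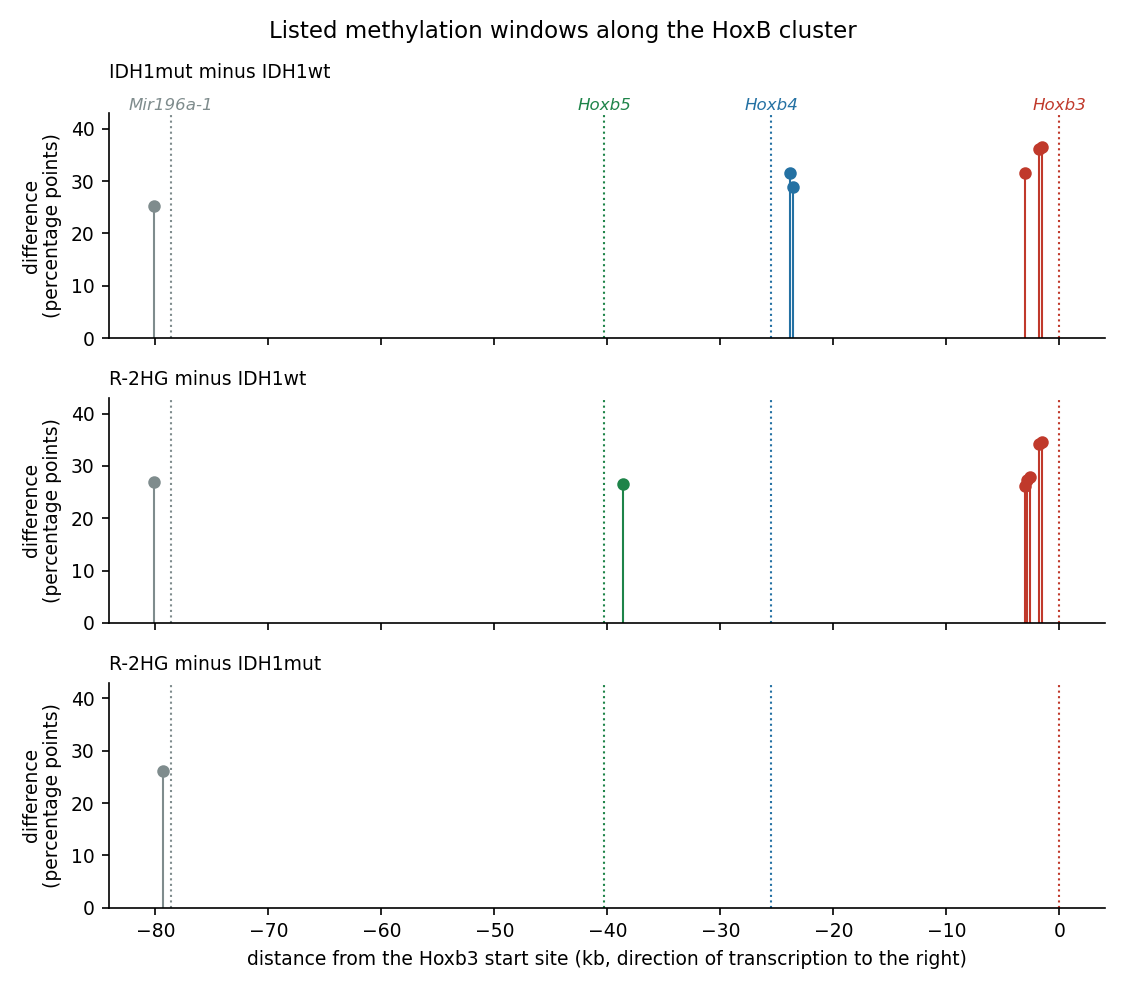
Listed windows along the HoxB cluster in each comparison. The horizontal axis is the distance of a window's centre from the Hoxb3 start site in kb, the vertical axis the authors' difference in methylation in percentage points, and dotted lines mark start sites. Windows near Hoxb3 stand in both comparisons with IDH1wt, those near Hoxb4 for IDH1mut and that near Hoxb5 for R-2HG, while R-2HG against IDH1mut shows 1 window near Mir196a-1.

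No mm9 annotation was used here, so exon, intron and UTR are not given. The distances refer to the transcripts NM_008268 (Hoxb5), NM_010459 (Hoxb4) and NM_010458 (Hoxb3). In RefSeq's gene order on GRCm38.p6, the cluster runs from Hoxb13, Mir196a-1 and Hoxb9 to Hoxb2 and Hoxb1, and the gene record of Hoxb3 overlaps those of Hoxb4, Mir10a and the antisense gene Hoxb3os. The Hoxb5 record overlaps that of the antisense gene Hoxb5os. A window named here for 1 gene can therefore also lie within a longer transcript of its neighbour or in an antisense transcript. In RefSeq's order the Hoxb3 record begins before those of Mir10a and Hoxb4. The listed Hoxb3 windows lie past the start of Hoxb4, so they can also lie within the gene record of Hoxb3 itself. For Hoxb3, upstream means upstream of the start of NM_010458 throughout.

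Hoxb3, the gene with the most windows of the 3, gained methylation upstream of the start of its transcript NM_010458 in both IDH1mut and R-2HG cells. For IDH1mut minus IDH1wt, the authors' deposited table lists 3 windows. They gained 31.5 points at -2833 bp, 36.1 points at -1583 bp and 36.5 points at -1333 bp, where the distance is that of the window's nearer edge from the start. The windows nearer to the start had the larger gains, and the nearest exceeded the farthest by 4.98 points.

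For R-2HG minus IDH1wt, the authors' deposited table lists 5 windows of Hoxb3. Its gains were 26.1 points at -2833 bp, 27.2 points at -2583 bp and 27.9 points at -2333 bp. Nearer to the start they were 34.2 points at -1583 bp and 34.5 points at -1333 bp. The values thus fell into a lower set of 3 windows and a higher pair, and the nearest window exceeded the farthest by 8.37 points. A span of 250 bp between 96202751 and 96203000 separates the 2 sets, and no listed window covers it in any table.

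Windows that overlap differed little in these tables. Within Hoxb3, overlapping windows differed by 0.34 to 1.10 points for R-2HG and by 0.40 points for IDH1mut. Over all overlapping neighbours 250 bp apart, the median gap was 0.34 points in the table of R-2HG with IDH1wt and 0.51 points in that of IDH1mut with IDH1wt. In 36.5% and 33.2% of these pairs the deposited values were exactly equal, with no tolerance. The step within the Hoxb3 stretch lies between windows that do not overlap.

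Both comparisons use the same IDH1wt libraries, so the values of those libraries enter both. Side by side in the authors' deposited tables, the window at -2833 bp gained 31.5 points in IDH1mut and 26.1 in R-2HG. The window at -1583 bp gained 36.1 and 34.2 points, and that at -1333 bp 36.5 and 34.5 points. By subtraction, R-2HG minus IDH1mut was -5.38, -1.94 and -1.99 points at these windows, a difference in which the IDH1wt libraries take no part. None of them is in the table of R-2HG with IDH1mut, and their error is unknown.

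Those at -2583 and -2333 bp are listed for R-2HG alone. If they were tested in all 3 comparisons and missed the other lists by size, the difference between R-2HG and IDH1mut was under 25 points. IDH1mut minus IDH1wt then lay above 2.25 and 2.87 points there, and below 25. The tables do not say whether these windows were tested. Their absence from the IDH1mut list therefore does not show a difference between IDH1mut and R-2HG.

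Hoxb4 gained methylation in IDH1mut cells, within its first kilobases. For it the authors' deposited table of IDH1mut with IDH1wt gives gains of 31.5 points in the window 1422 bp past the start and 28.8 points in the window at 1672 bp. These overlapping windows differed by 2.69 points, more than any overlapping pair at Hoxb3. Neither is listed for R-2HG, nor in the table of R-2HG with IDH1mut. Under the same condition as above, R-2HG minus IDH1wt lay above 6.50 and 3.81 points at them, and below 25. These bounds allow a gain in R-2HG cells that missed the threshold. Among the 881 genes listed for IDH1mut against IDH1wt, only 255 were also listed for R-2HG against IDH1wt.

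Hoxb5 gained methylation in R-2HG cells, in 1 window downstream of its start site. The authors' deposited table of R-2HG with IDH1wt lists 26.5 points at 1427 bp. This is close to the smallest difference that any table holds. The window is not listed for IDH1mut, and under the same condition IDH1mut minus IDH1wt lay above 1.55 points and below 25. Among the 452 genes listed for R-2HG against IDH1wt, 255 were also listed for IDH1mut against IDH1wt. Of all the windows of the 3 genes, those closest to the threshold from inside were the Hoxb3 window at -2833 bp and this Hoxb5 window, both for R-2HG. In the authors' deposited table they stand at 26.1 and 26.5 points. The tables hold nothing just outside the threshold.

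**Figure D2:**
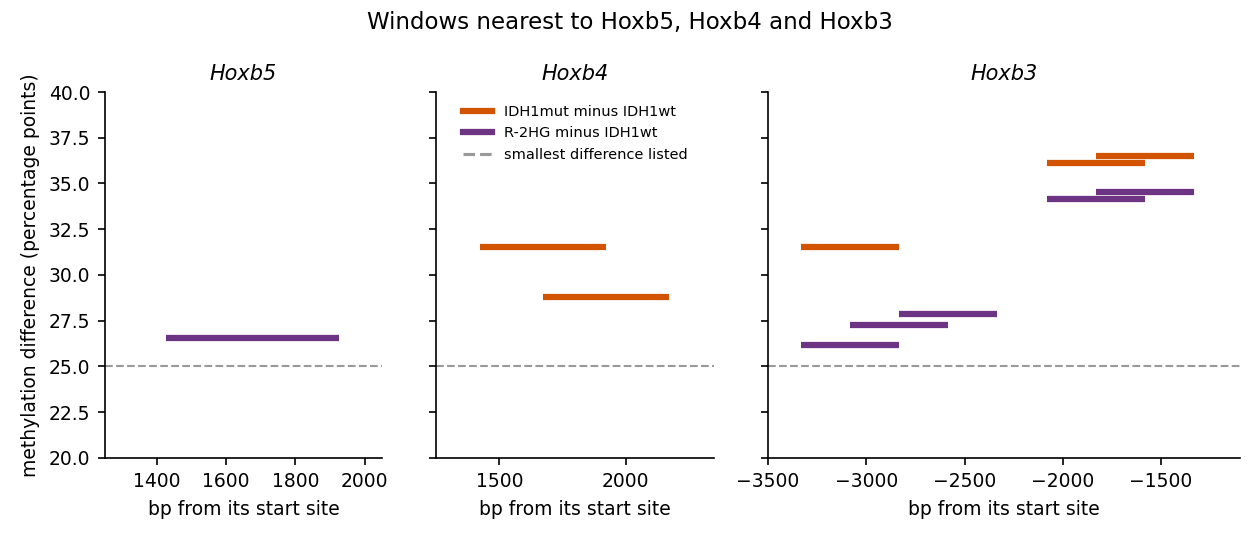
Each window of Hoxb5, Hoxb4 and Hoxb3 drawn to its length. The horizontal axis is the distance from the gene's own start site in bp, the vertical axis (from 20 to 40) the authors' difference in percentage points, and the dashed line the smallest difference listed. At Hoxb3 the 2 windows nearest to the start lie between 34.2 and 36.5 points in both comparisons, and the others between 26.1 and 31.5 points.

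All 5 windows listed for IDH1mut and all 6 listed for R-2HG were gains. Among all listed windows the share of gains was 69.3% for IDH1mut minus IDH1wt and 68.0% for R-2HG minus IDH1wt. These windows were picked from the same tables, and several overlap, so nothing is read from the difference. The median over the windows of the 3 genes was 31.5 points for IDH1mut, beside 30.6 points over all 1035 gains. For R-2HG it was 27.6 points, beside 29.4 over all 510 gains in that table.

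Placed among the gains of its own table, the highest Hoxb3 window ranked 260 of 1035 for IDH1mut and 139 of 510 for R-2HG, so larger gains were common in both. The Hoxb4 windows ranked 455 and 648 of 1035, and the Hoxb5 window 400 of 510. By number of windows Hoxb3 stood higher. Its 5 windows for R-2HG were matched or exceeded in 6 of the 452 listed genes, itself included (1.33%), and its 3 windows for IDH1mut in 88 of 881 genes (9.99%). Another Hox gene, Hoxc6, had more windows in both, 8 for IDH1mut and 6 for R-2HG, and Hoxa5 had 4 for IDH1mut. The number of windows that a gene can have depends on how much of it RRBS covers, which is unknown here. Windows can also overlap, and the 5 of Hoxb3 for R-2HG make up a single joined stretch of 2000 bp. The gene was chosen from these same lists, so its place by number is a description.

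**Figure D3:**
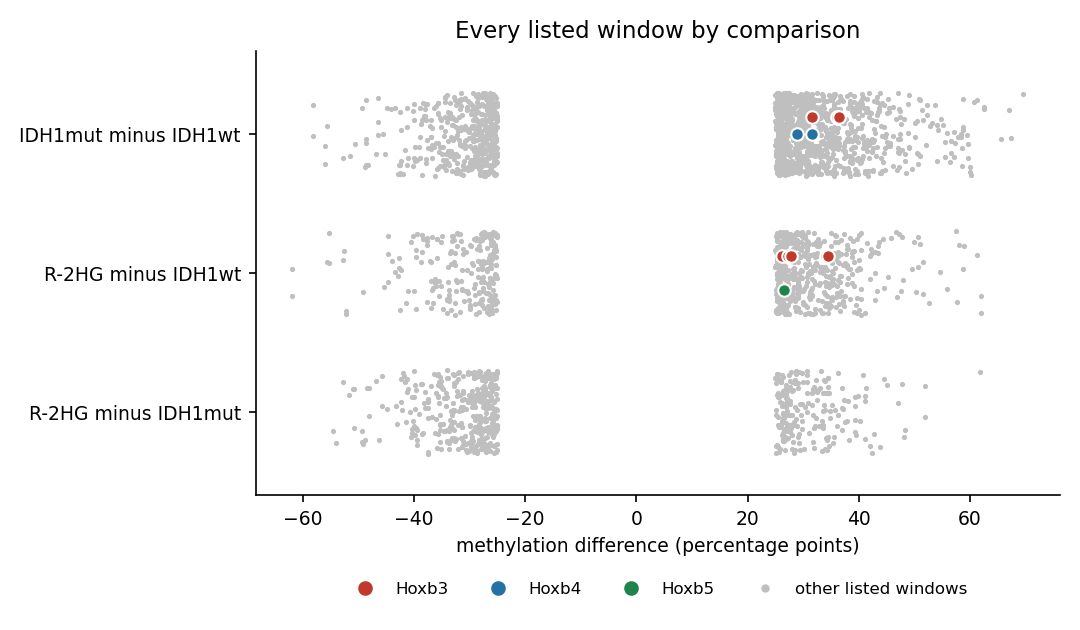
Every listed window of the 3 comparisons by its difference in percentage points, with the windows of Hoxb3, Hoxb4 and Hoxb5 in colour and all others in grey (spread vertically for sight). The empty band in the middle is the threshold of 25 points, and the coloured windows lie from 26.1 to 36.5 points, inside the cloud of gains.

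A deposited p-value of 0 was common among all listed windows, at 70.9% for IDH1mut minus IDH1wt and 68.7% for R-2HG minus IDH1wt. Nothing is therefore read from its frequency at the windows described here. Among these, the authors' p-value was deposited as 0 for 4 of the 5 windows of IDH1mut and 5 of the 6 of R-2HG. The exception in each was the Hoxb3 window at -2833 bp. The authors' deposited tables give it q = 1.36e-12 for IDH1mut and q = 2.53e-12 for R-2HG. The test behind these values is not given in the sources used here, so it is unknown whether it takes the spread between libraries into account.

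None of the other 7 HoxB genes (Hoxb1, Hoxb2, Hoxb6, Hoxb7, Hoxb8, Hoxb9 and Hoxb13) was the nearest gene of a listed window in any comparison. Of all protein-coding genes of RefSeq, only 3.38% were listed for IDH1mut against IDH1wt. For R-2HG the share was 1.75% against IDH1wt and 1.46% against IDH1mut. The 3 genes were chosen because they are listed, so nothing is read from the absence of the other 7. Within 200 kb of the windows of the 3 genes, the only other listed windows belonged to Mir196a-1, 1 in each table. Its start site, from the authors' distances, lies 78605 bp before that of Hoxb3. It encodes miR-196a, a microRNA that represses Hox transcripts, among them that of Hoxb8. The mature sequence is shown for that reason, from RefSeq (GRCm38.p6), with the seed (bases 2 to 8) in capitals.

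mmu-miR-196a-5p: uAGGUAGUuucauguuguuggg

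At Mir196a-1 the authors' deposited tables list the same window, at -1228 bp, with 25.2 points for IDH1mut minus IDH1wt and 27.0 points for R-2HG minus IDH1wt. Both are gains near the threshold, as at Hoxb5. A different window, at -478 bp, was higher in R-2HG than in IDH1mut by 26.1 points in the authors' deposited table. It was the only window of the cluster in that comparison. Of the 14 genes listed as neighbours of the cluster, 12 had a RefSeq record, and Nfe2l1 was the only other one with a listed window. Nfe2l1, a stress-response transcription factor gene, was lower in R-2HG than in IDH1mut, and the authors' deposited table gives it -28.4 points at 78 bp. Mir10a and the antisense genes Hoxb3os and Hoxb5os were not nearest to any listed window. The shares of all protein-coding genes given above stand beside these neighbours too, and nothing is read from their number.

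Across the 4 Hox clusters, 8 of 39 genes were nearest to a listed window for IDH1mut against IDH1wt, 6 for R-2HG against IDH1wt and 2 for R-2HG against IDH1mut. Of all 21896 protein-coding genes of RefSeq, 3.38%, 1.75% and 1.46% were listed in the same comparisons. RRBS covers CpG-rich genes more densely and coverage is unknown, so these shares are a description. HoxB and HoxA genes were gains in every listed window against IDH1wt, and HoxC genes were losses. In HoxA these were 10 windows for IDH1mut and 5 for R-2HG, with medians of 32.1 and 35.2 points. In HoxC they were 10 windows with a median of -46.5 points for IDH1mut and 6 with -38.6 for R-2HG. The HoxC windows for IDH1mut were 8 of Hoxc6 and 2 of Hoxc5, and those for R-2HG were all of Hoxc6. Among all listed windows, 69.3% for IDH1mut and 68.0% for R-2HG were gains. With so few genes per cluster, nothing is read from these directions. No HoxD gene was listed. These directions refer to the sign reading given above, and under the reversed reading HoxB and HoxA are losses and HoxC gains.

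By paralogue group, the paralogues of Hoxb3, which are Hoxa3 and Hoxd3, were not listed. Of the paralogues of Hoxb4, the authors' deposited table gives Hoxa4 a gain of 31.4 points at 453 bp for IDH1mut, and Hoxc4 and Hoxd4 were not listed. Hoxa4 was not listed for R-2HG, nor was Hoxb4, but only 255 of the 881 genes listed for IDH1mut were listed there too. Nothing is read from this absence. Of the paralogues of Hoxb5, Hoxa5 gained 30.8 to 35.5 points in 4 windows for IDH1mut and 26.8 points in 1 window for R-2HG in the authors' deposited tables. Hoxc5 went the other way, with -30.4 and -32.5 points in 2 windows for IDH1mut. The fifth group thus held gains and losses in the same table.

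**Figure D4:**
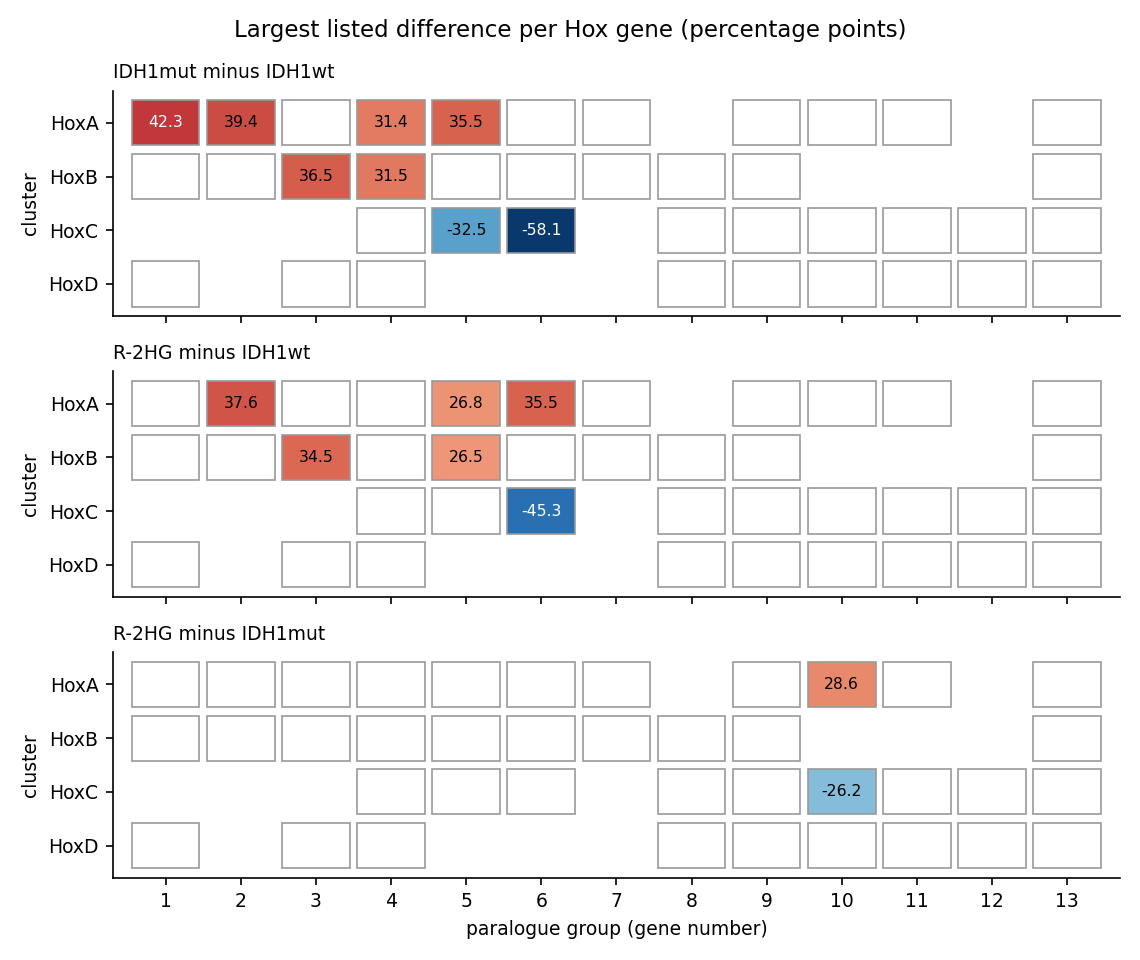
Largest listed difference of each of the 39 Hox genes, in percentage points, by cluster (rows) and paralogue group (columns) for the 3 comparisons. Open boxes are genes that were not the nearest gene of a listed window, and places with no box have no gene. Red marks gains, in HoxA and HoxB, and blue losses, in HoxC, against IDH1wt.

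Hox proteins bind DNA together with Pbx, Meis and Pknox proteins. Of 9 such cofactor genes, Meis1 and Meis2 were listed for IDH1mut against IDH1wt, none for R-2HG against IDH1wt and Meis1 for R-2HG against IDH1mut. Beside these and the following counts stand the shares of all protein-coding genes given above, 3.38%, 1.75% and 1.46% in the same order, and with so few genes nothing is read from the lists. In the authors' deposited table Meis1 had 3 gains of up to 44.6 points and a loss of -42.4 points, and Meis2 a gain of 28.3 points, 48608 bp from its start. For R-2HG against IDH1mut, Meis1 had -25.1 and -25.9 points, at 143223 and 143473 bp, per the authors' deposited table. Among 22 Polycomb and trithorax genes, whose products keep Hox genes silent or active, 3 were listed for IDH1mut (Bmi1, Cbx8 and Rnf2), 2 for R-2HG (Cbx8 and Kdm6b) and 1 for R-2HG against IDH1mut (Bmi1). Cbx8, a subunit of Polycomb repressive complex 1 that reads the Polycomb mark, gained 55.6 and 55.8 points for IDH1mut and 36.5 and 36.6 points for R-2HG, from 3228 bp downstream of its start, in the authors' deposited tables. Rnf2, the ubiquitin ligase of that complex, had a gain of 25.2 points for IDH1mut (-17799 bp), per the authors' deposited table. Bmi1 gained 41.8 to 53.7 points in 3 windows for IDH1mut against IDH1wt in the authors' deposited table. R-2HG cells were lower than IDH1mut cells at Bmi1, with -44.8 to -31.4 points in 3 windows of the authors' deposited table. Of 14 genes of the DNA methylation machinery, the methyltransferase gene Dnmt3a was listed for IDH1mut, as a gain of 25.8 points over its start site by the authors' deposited table, and none for R-2HG against IDH1wt. Against IDH1mut, R-2HG cells were lower at Dnmt3a in the authors' deposited table, with -35.8 points in a window 9 bp from the start. The methylation of these genes says nothing here about their expression, which was not measured.

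The genes whose pattern was most like that of Hoxb3 were sought among the 255 genes listed in both comparisons with IDH1wt. Each gene was represented by its largest difference in each comparison, and likeness was the straight-line distance between genes over these 2 values, in percentage points. The nearest were Frk, a tyrosine kinase gene, at 0.556 points, Ccdc79 at 0.588, Ptn, a growth factor gene, at 1.22, Sox9, a developmental transcription factor gene, at 1.35 and 9330182L06Rik at 1.44. Per the authors' deposited tables, the windows of Ptn and Sox9 were far from a start site, the nearest at -131391 and 207729 bp. With the median of a gene's windows in place of the largest difference, none of these 5 was among the nearest 5, so the ranking rests on that choice. The 2 comparisons share their IDH1wt libraries.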

How the data were processed

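RRBS libraries of 6 samples in 3 groups of 2 were compared by the authors. Per the submitters' processing notes, the tools were Trim Galore, BSMAP and methylKit 0.9.1, with mm9 as the build. Their settings, the filter on coverage and the test used were not given in the sources used here. Per the file headers, the deposited tables hold, for each window, the methylation difference (a signed score in percentage points), its p-value and q-value, and how far the nearest start site lies. Depth per library is unknown.

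Python 3.11.15 with pandas 2.3.3 was used. Windows with Hoxb3, Hoxb4 or Hoxb5 as nearest gene were taken once per position. Rows repeated for equally near transcripts were dropped, 64, 4 and 1 in the tables of IDH1mut with IDH1wt, R-2HG with IDH1wt and R-2HG with IDH1mut, none of them at these genes. In the authors' numbering 5, 2 and 1 windows were absent and are not analysed here. The sign order was taken from the 3 windows in all tables (residual 0 in 1 of 4 orders) and the 705 in exactly 2, all of which then left a difference under 25 points. The sign order and the joining were tested on simulated data. No test between groups was possible without values per library. The genes, lists and rules were chosen with earlier results of these data known. Named are every window of the 3 genes, every listed Hox gene, cofactor or HoxB neighbour that bears on them, up to 3 genes of the other lists, the 5 genes most like Hoxb3, and every listed window within 200 kb. An item of the list of DNA methylation machinery is not reported here.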

Additional observations from a re-analysis of the deposited data

How the results depend on the processing

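The counts of 5, 6 and 0 windows in the comparisons of IDH1mut with IDH1wt, R-2HG with IDH1wt and R-2HG with IDH1mut were the same with q under 0.001, with repeated rows counted, and with every window in the span taken whatever its nearest gene. With differences of at least 30 points 4 windows were left for IDH1mut and 2 for R-2HG. Without overlapping windows 3 were left for IDH1mut and 4 for R-2HG. Promoter windows alone (-2000 to 500 bp from the start of the transcript named for each gene) left 2 in each comparison with IDH1wt. All were of Hoxb3, with medians of 36.3 points for IDH1mut and 34.3 for R-2HG. The R-2HG median without overlapping windows was 27.2 points. Under the opposite sign reading the medians were -31.5 and -27.6 points. Windows joined only where they touch gave 3 stretches in each in place of 2, and within 5000 bp 2. With medians per gene, 0 of the 5 genes most like Hoxb3 were kept. R-2HG against IDH1mut held no window to give a median. No paired analysis was possible because the tables hold no values per library, and for the same reason no library could be left out. Unknown depth limits every value.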
